A study of Mus musculus with 2 samples.

Results

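C1q macrophages with scavenger and lipid genes were examined among tumour-infiltrating immune cells of Ifnar1-SA and WT mice. They were chosen by their own counts: a cell barcode had to carry C1qa, C1qb and C1qc at 0.5% or more of its UMIs (unique molecular identifiers, by which each captured transcript is counted once) and Pf4, Gpnmb, Folr2 and Mmp12 together at 0.1% or more. Barcodes with 3 or more UMIs of Cd3d, Cd3e, Cd3g and Trac, or of the cycling genes Mki67, Top2a, Ube2c and Birc5, were left out. This selected 430 of 9059 kept barcodes, 192 of 5001 in the Ifnar1-SA library and 238 of 4058 in the WT library. The 7 genes of the rule describe the selection, and their high level is not a finding.

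The mice were inoculated with MC38, a mouse colon adenocarcinoma line, received no treatment, and their tumours were taken on day 14 for droplet-based single-cell RNA sequencing (10x). The Ifnar1-SA mice carry an altered allele of Ifnar1, which encodes a subunit of the receptor for type I interferon, and the WT mice are wild type. The labels do not spell out SA, and the number, age and sex of the animals and any sort before loading are not known here. Each genotype is 1 library, so genotype and library cannot be told apart, no test between genotypes was made, and "higher" and "lower" describe these libraries. All intervals are 95% intervals that cover counting error only. In bulk sums over cells, fewer cells of a state and less RNA per cell cannot be told apart.

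C1q, the recognition part of the classical complement cascade, is assembled from the products of C1qa, C1qb and C1qc and is made in tumours largely by macrophages. Scavenger-type macrophages take up dying cells, lipoproteins and haem and digest them in lysosomes. Some of them resemble long-lived tissue-resident macrophages, marked by Lyve1, Cd163, Folr2 and Mrc1, and others the lipid-associated macrophages marked by Trem2, Gpnmb, Spp1 and Fabp5. Type I interferon, read through the Ifnar1 and Ifnar2 chains, induces a wide set of antiviral genes in macrophages.

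The cells carried macrophage markers and few markers of T cells. Of 10 monocyte/macrophage markers, which include Csf1r, Lyz2, Adgre1 and Cd68, all 10 reached 20 CPM (UMIs summed over the cells, per 1000000 UMIs) in both libraries. Their summed level was 63468 CPM in Ifnar1-SA and 53321 CPM in WT. Apoe, which is among these markers, made most of both sums and most of the difference between them, and its levels are given below with the lipid handling genes. The labels also name the cells CD8 T cells. In these barcodes 8 T cell markers summed to 49.6 CPM in Ifnar1-SA and 29.2 CPM in WT, against 4986 and 4998 CPM in T cell barcodes of the same libraries. Cd3d, Cd3e, Cd3g and Trac are among those markers and set both groups, so this contrast was partly fixed by the selection and is a description. Markers of conventional type 1 dendritic cells summed to 55.2 and 38.5 CPM, and those of neutrophils to 47.5 and 43.0 CPM. The 6 type 2 dendritic cell markers summed to 489.7 CPM in Ifnar1-SA and 520.6 CPM in WT, and 145 and 190 macrophages held 3 or more of their UMIs. Of these markers 5 had a UMI in each library, and 2 reached 20 CPM in Ifnar1-SA and 4 in WT. Sirpa, which macrophages also express, made 456.0 and 373.1 CPM of these sums, Clec10a had 4.31 and 71.5 CPM, and Cd209a was at 0 in Ifnar1-SA and Flt3 at 0 in WT. The 5 plasmacytoid dendritic cell markers summed to 2275 and 1666 CPM, and 181 and 213 macrophages held 3 or more of their UMIs. Bst2, which is also in the type I interferon list, made 2139 and 1548 CPM of those, while Ly6d and Ccr9 were at 0 in both libraries. In each library 2 of the 5 reached 20 CPM, which in Ifnar1-SA were Bst2 and Tcf4. The part of dendritic cells in the results was not tested. NK cell markers summed to 6.04 and 5.90 CPM, MC38 tumour or epithelial markers to 8.20 and 6.94 CPM, and mast cell and red cell markers to less than 1 CPM in Ifnar1-SA and WT. Krt8, Krt18, Krt7, S100a9, Ly6g and Xcr1 were among the markers without a UMI in the Ifnar1-SA macrophages. Median depth was 12066 UMIs per macrophage in Ifnar1-SA and 12036 in WT, out of 62732220 and 55497066 UMIs in the libraries. The libraries shared 7 kept barcodes.

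The scavenger C1q macrophages made up a smaller share of the Ifnar1-SA library. They were 3.84% of kept barcodes in Ifnar1-SA (3.32 to 4.41%) and 5.87% in WT (5.16 to 6.63%), a difference of -2.03 points (-2.94 to -1.14). Of barcodes that passed the C1q threshold, they were 13.4% in Ifnar1-SA (11.7 to 15.3%, 192 of 1430) and 22.2% in WT (19.8 to 24.8%, 238 of 1071). C1q macrophages without the scavenger genes stood the other way, at 24.8% of kept barcodes in Ifnar1-SA and 20.5% in WT. Ly6c2-positive cells with little C1q, the monocyte side of the lineage, were 6.14% in Ifnar1-SA and 4.29% in WT. A scavenger threshold of 0.2% made both shares smaller, 1.84% of kept barcodes in Ifnar1-SA and 2.86% in WT. With them the difference became -1.02 points of kept barcodes and -4.40 points of C1q-passing barcodes. The share of C1q-passing barcodes was then 6.43% in Ifnar1-SA and 10.8% in WT.

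**Figure D1:**
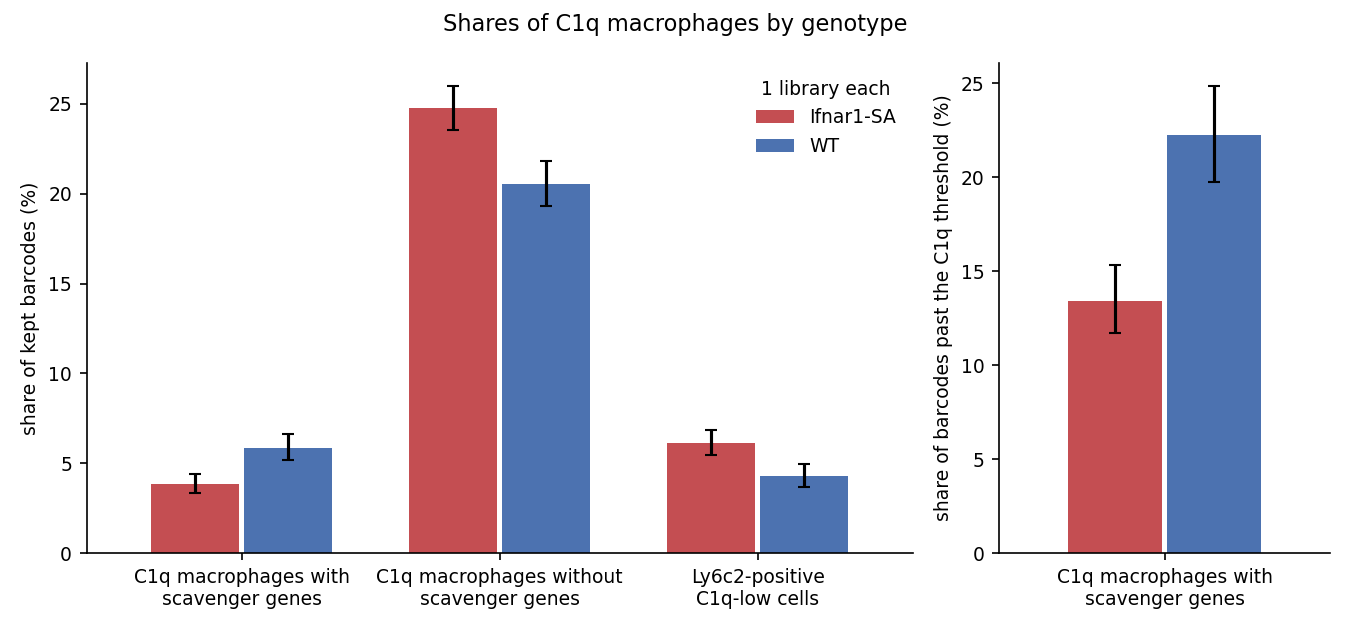
Shares of 3 myeloid groups by genotype, as percent of kept barcodes (left) and of barcodes past the C1q threshold (right); bars are 1 library each and lines are exact 95% binomial intervals, which cover counting error only. The scavenger C1q macrophages stand at 3.84% in Ifnar1-SA and 5.87% in WT, while both other groups are larger in Ifnar1-SA.

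The threshold cut through a continuum. The macrophages just inside it carried the 4 scavenger genes at 0.101% of UMIs in both libraries, and the barcodes just outside at 0.0983% in Ifnar1-SA and 0.0998% in WT. Between 0.1% and 0.12% lay 31 selected macrophages in Ifnar1-SA and 44 in WT, and 36 and 38 barcodes that missed the threshold held 0.08% or more. Free RNA, read from barcodes with 10 to 100 UMIs, carried the scavenger genes at 0.0219% in Ifnar1-SA and 0.0437% in WT, below the threshold but higher in WT. The part of free RNA in the difference in share was not tested. It carried the C1q genes at 0.658% and 0.729%, above their threshold of 0.5%, while the selected macrophages carried them at 2.42% in Ifnar1-SA and 2.36% in WT.

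Pf4 decided most of the selection. This chemokine gene of platelets and macrophages (chromosome 5, 90772435 to 90773383, plus strand, GRCm38) gave 87.3% of the scavenger UMIs in Ifnar1-SA and 83.6% in WT, and was the highest of the 4 genes in 178 of 192 and 211 of 238 macrophages. Its level was 2312.5 CPM in Ifnar1-SA and 2362.3 CPM in WT, a log2 ratio of -0.03. The C1q genes lie side by side on chromosome 4 (C1qb at 136880129 to 136886187, C1qc at 136889804 to 136893065, C1qa at 136895917 to 136898803), and their log2 ratios were 0.01 for C1qa, 0.07 for C1qb and 0.02 for C1qc.

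The 3 remaining rule genes are also part of the sum that chose the cells, so their values are a description. Gpnmb, a glycoprotein of phagocytes that digest cell debris, stood at 153.6 CPM in Ifnar1-SA and 101.7 CPM in WT, a log2 ratio of 0.59. Folr2, a folate receptor of resident-type macrophages, stood at 140.2 CPM in Ifnar1-SA and 265.5 CPM in WT, a log2 ratio of -0.92, and free RNA held it at 16.8 and 62.3 CPM. Mmp12, the macrophage elastase, stood at 41.4 and 97.9 CPM, but 5 WT macrophages held 84.4% of its UMIs there. With each macrophage weighted equally its ratio was 0.03 in place of -1.24.

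Folr2 and Gpnmb were found both together and apart. A Folr2 UMI without Gpnmb was found in 62 Ifnar1-SA and 116 WT macrophages, Gpnmb without Folr2 in 24 and 15, both in 34 and 33, and neither in 72 and 74. Of macrophages with Gpnmb, 34 of 58 in Ifnar1-SA and 33 of 48 in WT thus also held Folr2, against 96 of 192 and 149 of 238 of all. These counts are unthinned, and depth differed. Median UMIs in Ifnar1-SA and WT were 14483 and 13723 with both and 9215.5 and 11482 with neither. They were 15953 and 8495 with Gpnmb only and 11684 and 11878 with Folr2 only. The part of depth was not tested. Thinned to 2000 UMIs each, which left out 7 and 13 shallower macrophages, 20.5% held a Folr2 UMI in Ifnar1-SA and 32.4% in WT. For Gpnmb the thinned shares were 17.8% in Ifnar1-SA and 9.33% in WT. Unthinned, Gpnmb was found in 30.2% and 20.2%. In T cell barcodes, which should lack both, the thinned shares were 0.0652% and 0.380% for Folr2, and for Gpnmb 0 of 1533 in Ifnar1-SA, which allows up to 0.196%, and 0.0633% in WT, at median depths of 4745 and 5356 UMIs.

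Fabp5 and Spp1, the only lipid-associated genes given for this split, were high where Gpnmb was found, with or without Folr2. The Gpnmb-only groups held 24 macrophages in Ifnar1-SA and 15 in WT, and a few cells of each library held much of the Spp1. Macrophages with Gpnmb and no Folr2 had Fabp5, a fatty acid carrier, at 3584 CPM in Ifnar1-SA and 3057 CPM in WT, and Spp1, osteopontin, at 2222 and 1801 CPM. Those with both markers had Fabp5 at 2702 CPM in Ifnar1-SA and 2046 CPM in WT and Spp1 at 1826 and 1115 CPM. Those with Folr2 and no Gpnmb had Fabp5 at 706.4 CPM in Ifnar1-SA and 355.2 CPM in WT and Spp1 at 362.8 and 381.2 CPM. In WT, Cd163 stood at 142.8 CPM and F13a1 at 492.9 CPM in the Folr2-only macrophages, against 0 and 63.8 CPM in the Gpnmb-only ones and 0 and 99.5 CPM in those with both. In Ifnar1-SA, Cd163 had 1 UMI in all, and F13a1 stood at 77.9 CPM in the Folr2-only macrophages, 47.8 CPM in the Gpnmb-only ones and 65.1 CPM in those with both. These splits were chosen with rule genes and are a description.

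**Figure D2:**
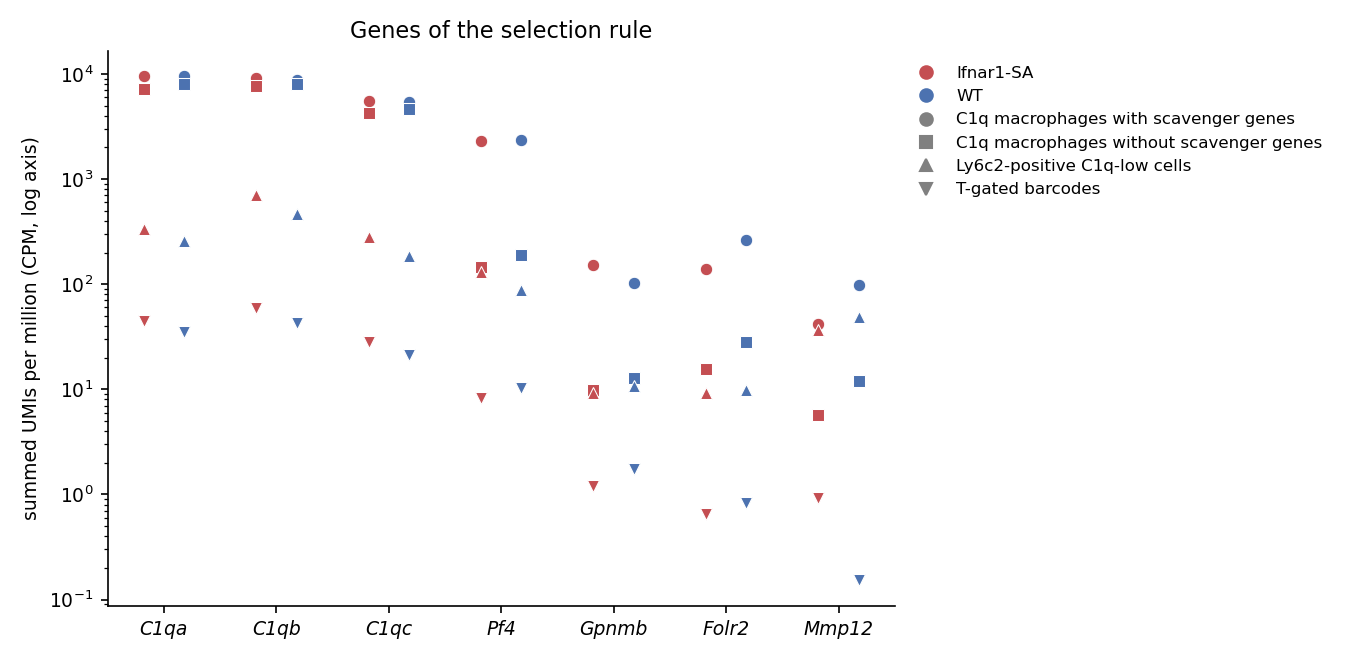
Levels of the 7 genes of the rule (CPM of UMIs summed over cells, log axis) in 4 groups of barcodes per library, 1 symbol per group. The selected macrophages stand above C1q macrophages without scavenger genes most clearly for Pf4, at 2312.5 CPM in Ifnar1-SA and 2362.3 CPM in WT.

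Set against C1q macrophages without the scavenger genes, which the rule itself separates, the selected macrophages carried more lysosomal, lipid and resident-type transcripts and less MHC class II. Of 4338 genes at 20 CPM or more, 122 were at least 1.5-fold higher and 40 at least 1.5-fold lower in both libraries. The 15 highest were Pf4, Folr2, Gpnmb, F13a1, Cd36, Mt2, Serpinb6a, Ccl8, Fabp5, Hist1h2bc, Emp1, Mrc1, Ctsd, Ccl6 and Pdpn. Fabp5 stood 2.93 log2 units above in Ifnar1-SA and 1.63 in WT. Cd36, a receptor for oxidised lipoproteins, stood 2.42 above in Ifnar1-SA and 2.91 in WT, and Ctsb, the lysosomal protease cathepsin B, 1.10 and 0.93. By list, 13 of 19 measured resident-type genes, 10 of 26 lysosomal, 10 of 19 lipid-associated macrophage, 6 of 16 scavenger receptor and 5 of 19 lipid handling genes were higher in both libraries. Of 6 measured MHC class II genes 5 were lower in both libraries, and of 9 monocyte genes 5. These counts repeat the selection and were not tested.

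Between genotypes, few genes of the selected macrophages differed by more than 1.5-fold with counting error allowed for, and lower genes outnumbered higher ones. By this rule, of 4642 genes with a mean of 20 CPM or more, 18 (0.388%) had an interval wholly above 1.5-fold higher in Ifnar1-SA and 68 (1.46%) wholly beyond 1.5-fold lower. A log2 ratio above 0 was found for 53.7% of them, and the median was 0.02. The 18 higher genes were Ms4a4b, Ly6c2, Isg20, Cd4, Ifitm1, Ifi44, Slfn4, P2ry14, Ms4a4c, Syngr1, Fabp5, Resf1, Slfn1, Irf7, Ccr2, Man2b1, Ifi213 and Ifit3. Since the filter used the mean, both counts include genes whose direction it fixed. Ms4a4b, Isg20, Cd4 and Ifitm1 were under 20 CPM in WT, passed through Ifnar1-SA alone and had to be higher. Lower genes such as Lyve1, Cd163, Cd209f and Fabp4 passed through WT alone and had to be lower. For 5 of them, Ms4a4b, Ly6c2, Isg20, Cd4 and Ifitm1, the level in the Ifnar1-SA macrophages lay below that in free RNA of the same library. Ly6c2, a surface protein of inflammatory monocytes and of T cells, had 301.6 CPM in the Ifnar1-SA and 100.3 CPM in the WT macrophages, against 467.2 and 220.0 CPM in free RNA. The part of free RNA in these differences was not tested. In C1q macrophages without scavenger genes, 8 of 4558 genes were higher and 21 lower by the same rule.

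Genes induced by type I interferon stood slightly to moderately higher in Ifnar1-SA. Of 59 measured genes of the list, 56 had a ratio above 0, 6 were past 1.5-fold higher and none lower, and the median log2 ratio was 0.47. Isg20, among those 6, was under 20 CPM in WT, so it passed the filter through Ifnar1-SA alone and had to be higher. Irf7 (chromosome 7, 141262706 to 141266481, minus strand), a transcription factor of the interferon response itself, had 625.1 CPM in Ifnar1-SA and 340.9 CPM in WT, a log2 ratio of 0.88 (0.76 to 0.99). Ms4a4c, a membrane protein gene inducible by interferon, had 862.0 CPM in Ifnar1-SA and 408.2 CPM in WT, a log2 ratio of 1.08 (0.97 to 1.18). Isg15, a ubiquitin-like modifier, had 818.4 CPM in Ifnar1-SA and 608.8 CPM in WT, a log2 ratio of 0.43 (0.33 to 0.52), and Bst2, the tetherin that holds budding virus, 2139 and 1548 CPM. Among the abundant list genes the ratio was smaller for Ifi27l2a, at 0.20, and Ly6e, at 0.21.

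Some genes of the list stood out at either end. Ifi44 had 104.8 CPM in Ifnar1-SA and 46.9 CPM in WT, and the schlafen gene Slfn4, outside the list, 142.8 and 64.6 CPM. Isg20, an RNA exonuclease, had the highest ratio of the list, 1.44, at 40.6 and 14.9 CPM and so with few UMIs, 94 and 43. It passed the filter on mean level through Ifnar1-SA alone. The lowest were Cxcl10, a chemokine that draws CXCR3-bearing T cells, at -0.38 (-0.49 to -0.26), and Irf9, a subunit of the interferon-activated ISGF3 complex, at -0.24 (-0.61 to 0.11). Rsad2, the antiviral enzyme viperin, had 160.5 CPM in Ifnar1-SA and 162.1 CPM in WT.

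Within single macrophages the list took a median 1.60% of UMIs in Ifnar1-SA (quartiles 1.18 and 2.25%) and 1.17% in WT (0.80 and 1.65%), so the cells of both genotypes overlapped widely. Thinned to 2000 UMIs, an Irf7 UMI was found in 64.9% of the macrophages in Ifnar1-SA (57.5 to 71.7%) and 42.2% in WT (35.7 to 49.0%), against 91.7% and 76.0% unthinned. In T cell barcodes, which can express Irf7 themselves, the thinned shares were 27.7% and 13.9%. C1q macrophages without scavenger genes had a list median of 0.37 log2 units. Free RNA moved with genotype too: the 59 genes summed to 18777 CPM there in Ifnar1-SA and 11985 CPM in WT, with a median log2 ratio of 0.63, against sums of 17555 and 13359 CPM in the macrophages. Its part in the list's difference was not tested.

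Interferon acts on many of these genes through the interferon-stimulated response element, searched here as GAAANNGAAA on both strands in the 250 bases before each start site (RefSeq, GRCm38.p6). A match was present for 22 of 46 list genes tested that have a promoter in the RefSeq table (47.8%), for 158 of 3769 tested genes (4.19%) and for 936 of 27025 genes in all (3.46%). The stretches below were chosen after the values were seen, to show matches beside a range of ratios, in 120 bases each on the gene's own strand, with matches in capitals. They are Ifit3, an RNA-binding antiviral protein gene (chr19:34583333-34583452, plus strand, log2 ratio 0.79, 304.6 CPM in Ifnar1-SA and 175.6 CPM in WT), Ifi213 (chr1:173599273-173599392, minus strand, 0.81), Isg15 (chr4:156200819-156200938, minus strand, 0.43) and Rsad2 (chr12:26456493-26456612, minus strand, -0.01).
Ifit3: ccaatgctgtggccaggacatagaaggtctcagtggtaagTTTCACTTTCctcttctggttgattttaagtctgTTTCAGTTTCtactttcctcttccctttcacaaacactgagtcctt
Ifi213: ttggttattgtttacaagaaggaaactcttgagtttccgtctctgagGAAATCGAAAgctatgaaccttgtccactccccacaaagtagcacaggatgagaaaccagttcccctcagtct
Isg15: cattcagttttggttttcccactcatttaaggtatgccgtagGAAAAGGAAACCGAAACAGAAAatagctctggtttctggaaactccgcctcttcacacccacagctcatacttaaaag
Rsad2: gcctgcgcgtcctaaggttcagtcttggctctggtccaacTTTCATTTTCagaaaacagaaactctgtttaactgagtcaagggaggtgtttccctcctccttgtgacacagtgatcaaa
Ifit3 held 2 matches, and Isg15 held 3 that overlap in 1 run. Rsad2 held a match at a ratio of -0.01, and the windows of Irf7, Ifi44, Slfn1 and Slfn4, all higher in Ifnar1-SA, held none. A match describes the letters only.

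MHC class II genes, which present extracellular peptides to CD4 T cells, were lower in the Ifnar1-SA macrophages. All 6 measured genes had ratios below 0, 4 of them past 1.5-fold, and the median log2 ratio was -1.12. H2-Eb1 had 1277 CPM in Ifnar1-SA and 3224 CPM in WT, a log2 ratio of -1.34 (-1.40 to -1.28). H2-Ab1 had 1446 and 3142 CPM, H2-Aa 1174 and 2569 CPM, and Cd74, the invariant chain that chaperones class II molecules, 3362 CPM in Ifnar1-SA and 7830 CPM in WT. The peptide-exchange genes H2-DMa and H2-DMb1 had ratios of -0.18 and -0.52.

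The cells ranged widely. The class II list took a median 0.304% of UMIs per macrophage in Ifnar1-SA, with a highest value of 6.71%, and 0.888% in WT, with a highest value of 9.34%. Thinned to 2000 UMIs, an H2-Ab1 UMI was found in 51.9% in Ifnar1-SA (44.4 to 59.3%) and 71.6% in WT (65.2 to 77.4%), against 74.0% and 84.9% unthinned and 10.6% and 7.73% in thinned T cell barcodes. C1q macrophages without scavenger genes had a median ratio of -0.71 over the list, and the free RNA of the 6 genes summed to 5009 CPM in Ifnar1-SA and 7397 CPM in WT. Those values moved with the macrophages' difference, and their part in it was not tested. In T cell barcodes the same genes summed to 1456 CPM in Ifnar1-SA and 738.0 CPM in WT.

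Class II promoters carry a Y box, searched here as CTGATTGG on both strands in the same window. It was present for 2 of 4 class II genes with a promoter in the RefSeq table, for 223 of 3769 tested genes (5.92%) and for 1198 of 27025 genes in all (4.43%). The 2 stretches that hold it are those of H2-Eb1 (chr17:34305747-34305866, plus strand, first base 62 before the start) and H2-Aa (chr17:34287824-34287943, minus strand, first base 51 before the start), with the match in capitals.
H2-Eb1: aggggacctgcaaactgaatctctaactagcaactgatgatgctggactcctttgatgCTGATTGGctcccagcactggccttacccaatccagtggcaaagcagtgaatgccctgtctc
H2-Aa: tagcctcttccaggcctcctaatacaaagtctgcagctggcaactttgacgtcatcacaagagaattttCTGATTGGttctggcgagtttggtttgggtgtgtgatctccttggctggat
Both genes were lower in Ifnar1-SA, by -1.34 and -1.13 log2 units, and the interferon element was not found in the windows of these class II genes.

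MHC class I genes, which present peptides from inside the cell, had ratios on the other side of 0. Of 19 measured, 17 had ratios above 0, none past 1.5-fold, with a median of 0.22. H2-D1 had 4724 CPM in Ifnar1-SA and 3791 CPM in WT, and B2m, the shared light chain, 7842 and 6761 CPM. Genes that lean on interferon gamma had a median of 0.21 with 16 of 22 above 0, but Cxcl9, a T cell chemokine, had 605.3 CPM in Ifnar1-SA and 919.8 CPM in WT, a log2 ratio of -0.60 (-0.70 to -0.51).

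**Figure D3:**
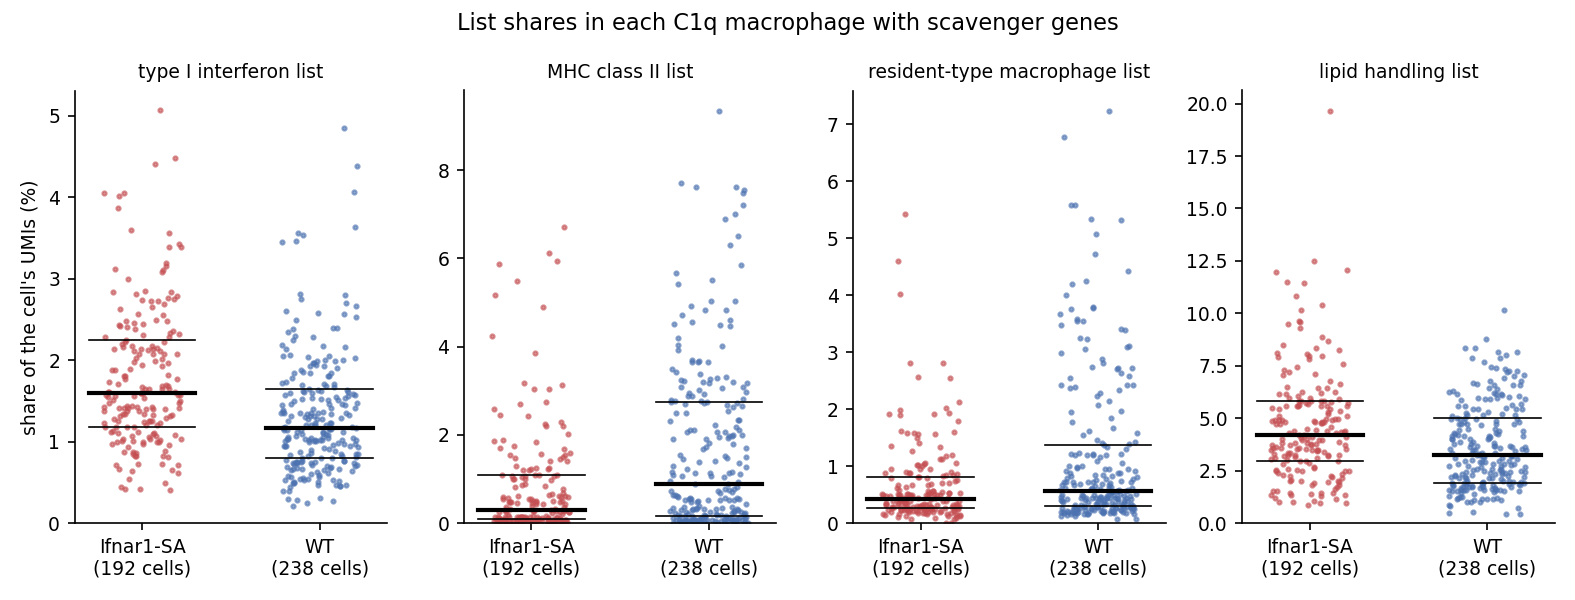
Share of each scavenger C1q macrophage's UMIs that came from 4 gene lists, 1 point per cell (192 in Ifnar1-SA, 238 in WT, 1 library each); thick lines are medians and thin lines quartiles. The type I interferon median is 1.60% in Ifnar1-SA and 1.17% in WT, the MHC class II median 0.304% and 0.888%, and the highest resident-type values are mostly WT cells.

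Several genes of tissue-resident macrophages were much lower in Ifnar1-SA. Of 22 in the list, 19 passed the filter on mean level, and 7 of those were under 20 CPM in Ifnar1-SA and so passed through WT alone and had to be lower. As a description of the genes that passed, 1 had a ratio above 0 and 11 were past 1.5-fold lower, with a median log2 ratio of -1.12. Folr2, a marker of resident-type macrophages, is also among the genes that chose the cells, so these values are not independent of the selection. Lyve1, a hyaluronan receptor (chromosome 7, 110850607 to 110863239, minus strand), had 0 UMIs in Ifnar1-SA and 150 in WT, at least 40.2-fold lower when set against a floor of 3 counts over the group. Cd209f, a C-type lectin gene, had 0 and 236 UMIs, at least 63.3-fold lower. Ednrb, the endothelin receptor B gene, which is outside the list and also passed through WT alone, had 0 and 248 UMIs, at least 66.5-fold lower. Cd163, the receptor that clears haemoglobin (chromosome 6, 124304656 to 124330527, plus strand), had 1 UMI in Ifnar1-SA and 198 in WT, a log2 ratio of -7.32 (-12.6 to -4.82). Fcna, a ficolin that activates complement, had 5 and 233 UMIs, and Clec10a, a galactose-binding lectin, 10 and 206.

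F13a1, the coagulation factor XIII A chain, had 58.2 CPM in Ifnar1-SA and 283.9 CPM in WT, a log2 ratio of -2.29 (-2.56 to -2.02), and Mrc1, the mannose receptor, 191.1 and 414.1 CPM. Cbr2, a carbonyl reductase, had 13.8 CPM in Ifnar1-SA and 110.4 CPM in WT. The list was not lower throughout: the transcription factor gene Maf had a ratio of 0.03, and Ccl8, a chemokine gene, 3826 CPM in Ifnar1-SA and 4189 CPM in WT, a ratio of -0.13.

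In WT these transcripts were concentrated in few cells. A split made after the values were seen, on genes seen to be low in Ifnar1-SA, at 3 or more UMIs of Lyve1, Cd163, Cd209f, Fcna and Cbr2, held 4 of 192 macrophages in Ifnar1-SA (2.08%, 0.570 to 5.25%) and 47 of 238 in WT (19.7%, 14.9 to 25.4%). All 5 genes were under 20 CPM in Ifnar1-SA, so a lower share there was fixed by the choice of genes, and the intervals do not test it. In WT those 47 held 1087 of the 1135 UMIs of the 5 genes, by which they were also chosen. Over all kept barcodes, macrophages or not, the same split held 13 in Ifnar1-SA (0.260%) and 72 in WT (1.77%). The WT subset had F13a1 at 1686 CPM and Mrc1 at 1919 CPM, against 70.4 and 184.8 CPM in the other 191 WT macrophages. It also had the heat shock gene Hspa1b at 6881 CPM, against 918.7 CPM in the others, and a median of 8186 UMIs per cell. Without these cells, whose removal takes away list transcripts by construction, the list median was 0.02 and 29 genes in place of 68 were lower in Ifnar1-SA, 24 of them shared.

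Free RNA of the Ifnar1-SA library was also poor in these transcripts, with 0 CPM of Lyve1 and Cd209f and 0.280 CPM of Cd163, against 4.27, 16.3 and 7.03 CPM in WT. The part of free RNA was not tested. In C1q macrophages without scavenger genes, F13a1 had a ratio of -1.70 and Cbr2 of -1.91.

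**Figure D4:**
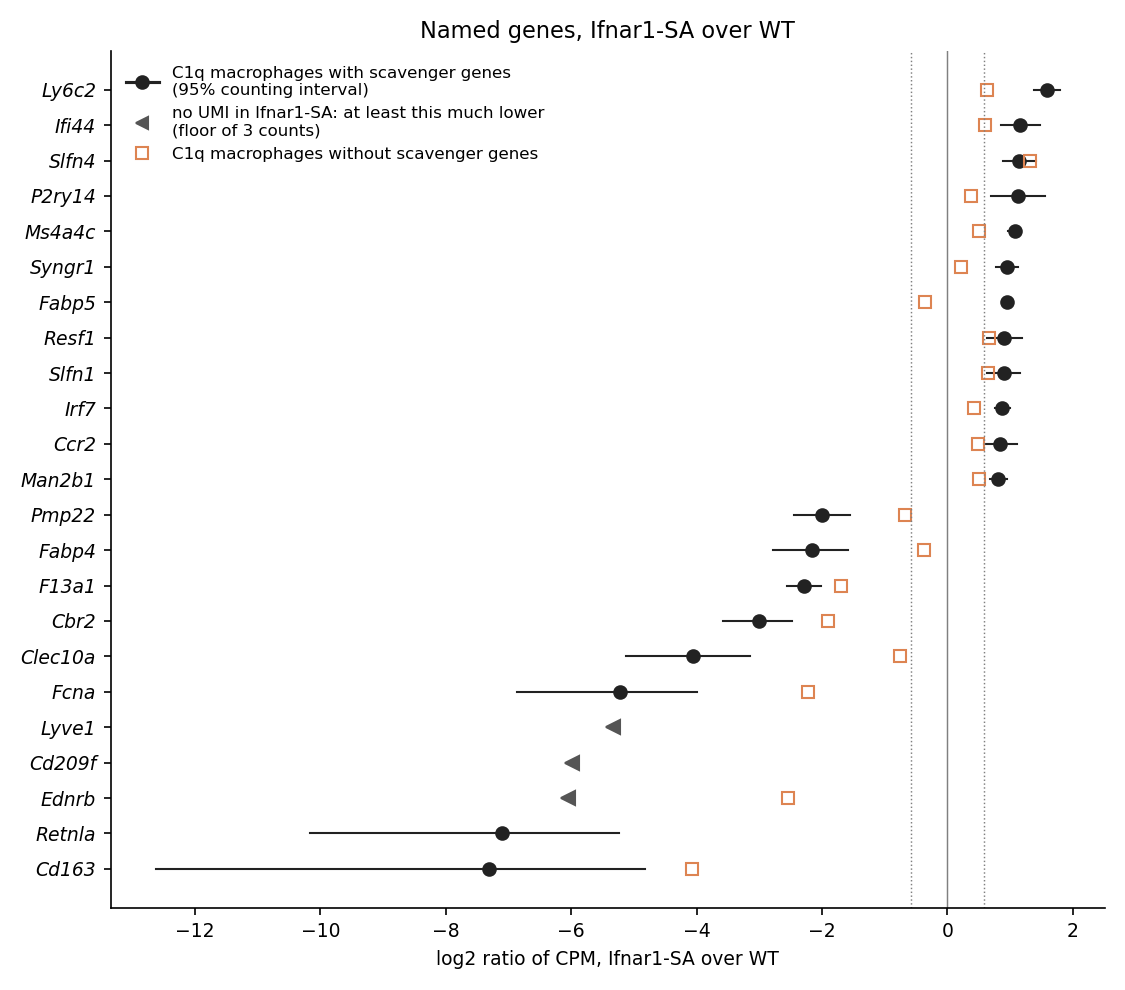
Log2 ratios, Ifnar1-SA over WT, of the highest and lowest named genes in the scavenger C1q macrophages, with 95% counting intervals; dotted lines mark 1.5-fold, triangles are bounds for genes with 0 UMIs in Ifnar1-SA, and open squares are C1q macrophages without scavenger genes. The lower end holds resident-type genes such as Cd163 at -7.32 and others such as Fabp4 at -2.16, both of which passed the filter on level through WT alone. Fabp5 stands on opposite sides in both macrophage groups, at 0.95 and -0.35.

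Lipid handling genes went both ways. Of 19 measured, 10 had ratios above 0, and the median of 0.02, equal to that over all genes, turned to -0.09 with macrophages weighted equally. As a share of each cell's UMIs, the list had a median of 4.19% in Ifnar1-SA and 3.24% in WT. In C1q macrophages without scavenger genes the share stood the other way, at 1.86% in Ifnar1-SA and 2.28% in WT. Apoe, an apolipoprotein that macrophages secrete, had 42289 CPM in Ifnar1-SA and 32642 CPM in WT, a log2 ratio of 0.37 (0.36 to 0.39). Fabp5 (chromosome 3, 10012548 to 10016607, plus strand) had 1662 CPM in Ifnar1-SA and 863.2 CPM in WT, a log2 ratio of 0.95 (0.87 to 1.02), the only gene of the list past 1.5-fold higher. Fabp4, a related fatty acid carrier, had 12.5 CPM in Ifnar1-SA and 55.9 CPM in WT, a log2 ratio of -2.16 (-2.78 to -1.58), the only one past it on the lower side. As it was under 20 CPM in Ifnar1-SA, it passed the filter on mean level through WT alone and had to be lower. Abcg1, a cholesterol exporter, had a ratio of 0.55 (0.27 to 0.82), and Pltp, which transfers phospholipids, -0.42 (-0.56 to -0.27).

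Fabp5 pointed the other way outside the scavenger macrophages. In C1q macrophages without scavenger genes it had 218.1 CPM in Ifnar1-SA and 278.7 CPM in WT, a ratio of -0.35, and the difference between the ratios was 1.30 (1.19 to 1.41) by counting error, with no replicate. Within the selected macrophages it was higher in Ifnar1-SA in all 4 groups by Folr2 and Gpnmb, as in the 72 and 74 macrophages with neither, at 1011 CPM in Ifnar1-SA and 474.8 CPM in WT. Thinned to 2000 UMIs, a Fabp5 UMI was found in 56.8% in Ifnar1-SA (49.3 to 64.0%) and 42.2% in WT (35.7 to 49.0%), against 80.2% and 64.7% unthinned and 16.0% and 16.1% in thinned T cell barcodes. Sterol synthesis genes were sparse, 6 measured with a median of -0.31.

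Lysosomal genes stood slightly higher, 20 of 26 above 0 with a median of 0.16, 1 past 1.5-fold. That 1 was Man2b1, a lysosomal mannosidase, with 496.6 CPM in Ifnar1-SA and 282.5 CPM in WT, a ratio of 0.81 (0.68 to 0.94). The cathepsin genes Ctss, Ctsb and Ctsd had ratios of 0.28, 0.08 and 0.17, and Ctsl -0.31. In C1q macrophages without scavenger genes 13 of 26 were above 0.

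Receptors for uptake split by type. Of 16 measured, 8 had ratios above 0 and 4 were past 1.5-fold lower, with a median of -0.06. The 4 were Mrc1, Lyve1, Cd209f and Cd163, which also stand in the resident-type list, and the last 3 passed the filter through WT alone. Trem2, a lipid-sensing receptor, had 1415 CPM in Ifnar1-SA and 1160 CPM in WT, and Mertk, which binds dying cells, 74.2 and 52.8 CPM, while the scavenger receptor genes Msr1 and Stab1 had ratios of 0.02 and -0.52. Of 12 iron and haem genes 6 were above 0, and Hmox1, haem oxygenase, had 199.3 CPM in Ifnar1-SA and 405.8 CPM in WT, a ratio of -1.03 (-1.18 to -0.87).

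The list of Arg1, Spp1 and lipid-associated macrophage genes was mixed, with 8 of 19 above 0, 2 past 1.5-fold higher and 3 lower. Syngr1, a vesicle protein gene, had 283.4 CPM in Ifnar1-SA and 146.5 CPM in WT, and Fabp5 was the other higher gene. Arg1, arginase, had 365.0 CPM in Ifnar1-SA and 649.4 CPM in WT, a ratio of -0.83, Fn1, fibronectin, 83.3 and 234.3 CPM, and Hmox1 was the third lower gene. Spp1 had 898.7 CPM in Ifnar1-SA and 578.3 CPM in WT, a ratio of 0.64 (0.54 to 0.73), and -0.49 in C1q macrophages without scavenger genes. The 5 highest cells held 42.7% of its UMIs in Ifnar1-SA and 44.4% in WT.

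Chemokine and inflammatory genes stood lower. Of 14 chemokine genes 2 had ratios above 0 and 4 were past 1.5-fold lower, with a median of -0.51. Ccl2, which draws CCR2-bearing monocytes, had 779.6 CPM in Ifnar1-SA and 1476 CPM in WT, Cxcl2, which draws neutrophils, 264.9 and 559.9 CPM, and Ccl6 217.4 and 580.7 CPM. Ccl9 was the fourth. Ccl3 and Cxcl16 had ratios of 0.31 and 0.26. Of 15 inflammatory mediators 4 were above 0, and the lower 3 were Il1b at 175.2 CPM in Ifnar1-SA and 314.8 CPM in WT, the endotoxin co-receptor gene Cd14 at 333.1 and 583.1 CPM, and Ptgs2, cyclooxygenase 2, at 41.9 and 84.3 CPM.

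Genes of the dissociation stress list, which tissue handling can raise, were lower in Ifnar1-SA as well. Of 19 measured, 1 had a ratio above 0 and 4 were past 1.5-fold lower, with a median of -0.44. Hspa1b had 632.9 CPM in Ifnar1-SA and 1707 CPM in WT, and Egr1, an immediate early gene, 28.5 and 108.6 CPM. In macrophages whose stress list took at most the median share of UMIs, 113 in Ifnar1-SA and 102 in WT, the median of the resident-type list was -0.20 and that of inflammatory mediators 0.31, while those of type I interferon and MHC class II genes were 0.48 and -1.34. That split was made after the values were seen. The WT subset rich in resident-type transcripts was also high in Hspa1b, so the split mixes stress with that subset. The part of stress in the ratios of other lists was not tested.

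Growth factor and receptor genes had a median of -0.07, with 8 of 21 above 0. Ifnar1 had 73.3 CPM in Ifnar1-SA and 67.7 CPM in WT, a ratio of 0.12 (-0.19 to 0.42), and Ifnar2 0.20 (0.03 to 0.38). These transcript counts do not show the allele. Ch25h, cholesterol 25-hydroxylase, had 106.6 CPM in Ifnar1-SA and 134.0 CPM in WT, a ratio of -0.33 (-0.57 to -0.10). Csf1r, the receptor macrophages depend on, had a ratio of -0.08 (-0.20 to 0.05), and Igf1, a growth factor of resident-type macrophages, -1.01 (-1.44 to -0.60). Complement genes other than C1q had 3 of 10 above 0 and a median of -0.21.

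Genes of hypoxia and glycolysis stood slightly lower, with 3 of 19 above 0, a median of -0.16 and none past 1.5-fold. In C1q macrophages without scavenger genes 1 of 19 was above 0, with a median of -0.28. The monocyte list had a median of 0.23 (5 of 9 above 0, Ly6c2 and Ccr2 past 1.5-fold higher), with Ccr2, the receptor for Ccl2, at 131.6 CPM in Ifnar1-SA and 73.2 CPM in WT, against 116.3 and 67.1 CPM in free RNA. The suppressive and checkpoint list had 0.12 (10 of 14), Fc receptors 0.09 (4 of 8), survival and apoptosis -0.06 (7 of 17), matrix and proteases -0.08 (5 of 11) and macrophage transcription factors -0.12 (7 of 19). None of the measured genes of the suppressive, Fc receptor, survival and transcription factor lists was past 1.5-fold.

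**Figure D5:**
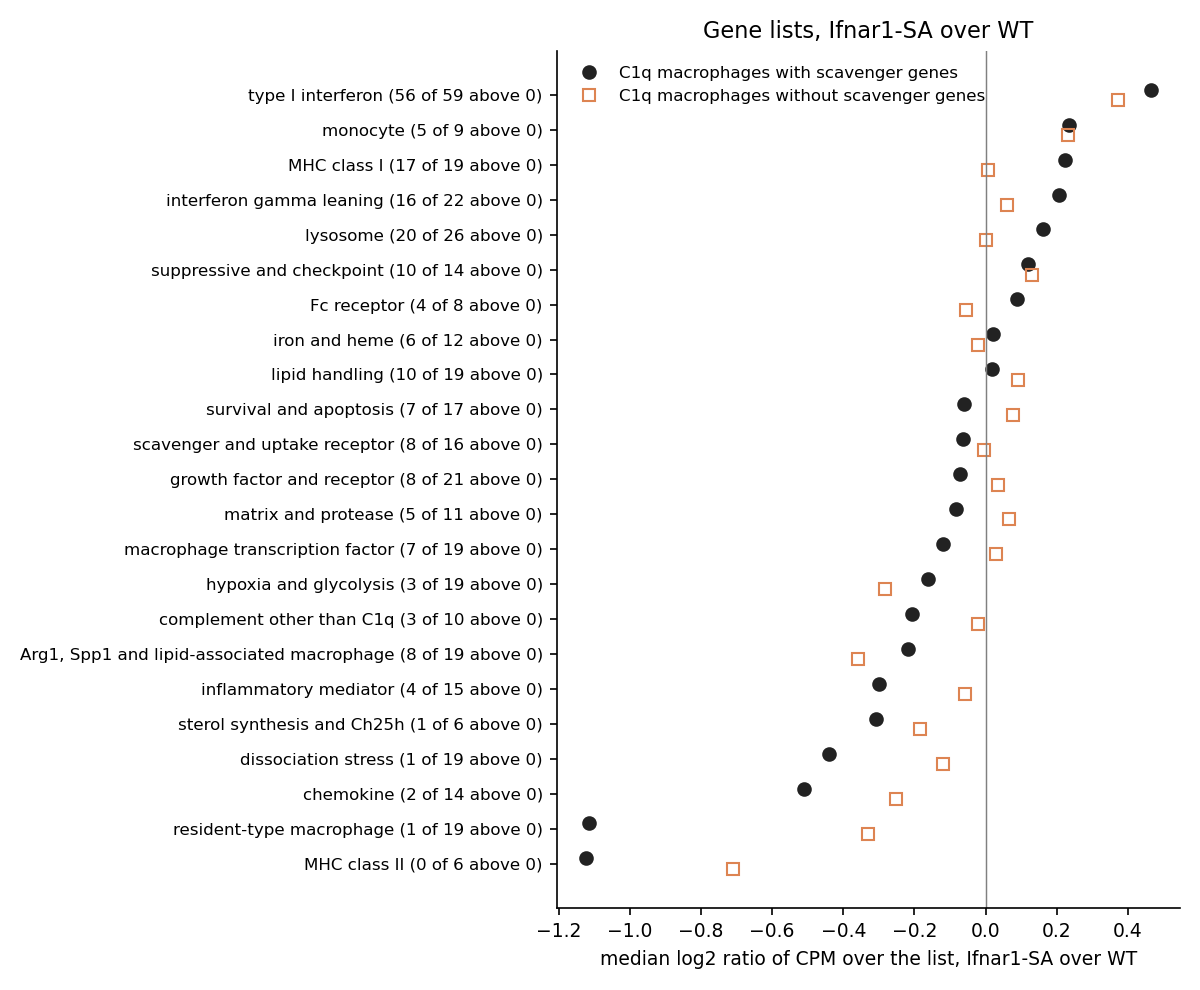
Median log2 ratio, Ifnar1-SA over WT, of 23 gene lists in the scavenger C1q macrophages (filled circles) and in C1q macrophages without scavenger genes (open squares), with the number of measured genes above 0 in the scavenger C1q macrophages beside each name. Type I interferon genes stand highest at 0.47, and MHC class II and resident-type genes lowest at -1.12, the resident-type list with 7 genes that passed the filter through WT alone.

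The Ifnar1-SA library held cells of both sexes. Among its selected macrophages 135 carried Xist without Y-linked transcripts, 19 Y-linked transcripts without Xist, 7 both and 31 neither. In WT 226 carried Xist alone, 12 carried neither, and 0 of 238 carried a Y-linked transcript, which allows a share of up to 1.26%. Among macrophages with Xist alone in both libraries, the median ratio was 0.48 for type I interferon, -1.14 for MHC class II and -1.07 for resident-type genes. With the 19 Y-linked macrophages of Ifnar1-SA, whose median depth was 5359 UMIs, set against all WT macrophages, those medians were 0.15, -1.31 and -1.98, Fabp5 had -0.44 and Gpnmb -3.86. Sex and genotype were thus partly mixed, and the part of sex in these ratios was not tested.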

How the data were processed

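The authors deposited raw UMI counts of each gene in each barcode. The headers of the files name Cell Ranger 4, and the submitters' processing notes name mm10 as the genome build, while the annotation release was not known here. The selected cells, gene lists and alternatives were chosen with earlier results of these data known, and some splits were made after the values were seen, as stated beside them.

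Kept barcodes had 1000 or more UMIs, 500 or more genes and no more than 10% of UMIs from mitochondrial genes. The comparison groups were C1q macrophages below the scavenger threshold, Ly6c2-positive cells (C1q under 0.5%, Lyz2 at least 0.1% and Ly6c2 at least 0.05% of UMIs) and T cell barcodes (3 or more UMIs of Cd3d, Cd3e, Cd3g and Trac, C1q under 0.1%). UMIs were summed over the cells of a library and given as CPM. Log2 ratios have exact conditional binomial intervals, which treat both sums as Poisson counts, and shares have exact Clopper-Pearson intervals, computed with Python 3.11.15, scipy 1.17.1 and statsmodels 0.14.6, and the interval code was checked on simulated data. Since each genotype is 1 library, no p-value is given, and a gene is called when its interval lies wholly outside 1.5-fold. Automatic doublet scoring with scanpy 1.11.5 marked 2 barcodes in Ifnar1-SA and 0 in WT. It was replaced by removing 200 and 132 top-scored barcodes, 0 of them among the selected macrophages.

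Named genes are the rule genes, the 12 highest and 12 lowest among called genes that reach 50 CPM in one of the libraries and 30 UMIs in total, the 15 highest against C1q macrophages without scavenger genes, the 4 most abundant and the 2 highest and 2 lowest of each list, and Ifnar1, Ifnar2 and Ch25h. Other genes named were chosen after their values were seen. The ranking excluded predicted, sex-linked, antigen receptor, ribosomal and mitochondrial genes. Clec7a and Aldoa, which stand in the lists, were not analysed here, and a few genes that the rule names are not reported here. Genes of near-identical families such as Ly6, Slfn, Ifi200, Fabp, histone and MHC genes may share reads. Gene positions are from GENCODE vM21 (GRCm38, 177 of 177 named genes matched). Alternatives changed cell filters, rule thresholds, depth, scaling, weighting, low-count filters, fold and sex-linked subsets.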

Additional observations from a re-analysis of the deposited data

Results flagged for a closer look

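For 4 genes named in the text the ratio between the libraries (log2, Ifnar1-SA over WT) pointed one way in the scavenger C1q macrophages and the other way in C1q macrophages without scavenger genes, with a difference of ratios beyond 1.5-fold by counting error. With 1 library per genotype the difference has no replicate check and was not tested. Fabp5 had 0.95 in the scavenger macrophages and -0.35 in the others, and Spp1 0.64 and -0.49. Egr1 had -1.93 and 0.29, and its level in the scavenger macrophages of WT was 659.0 CPM in the 47 cells of the resident-type subset and 24.8 CPM in the other 191. Plau, a plasminogen activator gene, had -0.66 (-1.15 to -0.18) and 0.63 (0.36 to 0.89), at 24.2 CPM in Ifnar1-SA and 38.2 CPM in WT in the scavenger macrophages.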

How the results depend on the processing

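No paired analysis was possible because each genotype is 1 library. The difference in share of kept barcodes was -1.02 points and that of C1q-passing barcodes -4.40 with a scavenger threshold of 0.2%, at which the shares of both libraries were smaller. Other alternatives kept both differences within 1.5 times. The 18 higher and 68 lower genes were 28 and 87 at that threshold, 31 and 104 with no CPM minimum, 13 and 38 at 50 CPM, 1 and 30 at 2-fold, 23 and 144 with cells weighted equally, 48 and 54 with Y-linked Ifnar1-SA cells, 15 and 29 without the resident-type subset, 13 and 24 with low dissociation stress and 13 and 53 thinned to 2000 UMIs. Of the 18 and 68, thinning kept 5 and 38, the threshold of 0.2% 14 and 59, equal weights 16 and 58, low stress 8 and 21, and Y-linked Ifnar1-SA cells 2 and 31. The type I interferon median was 0.62 at the threshold of 0.2%, 0.37 with no limit on cycling genes, 0.52 thinned to 2000 UMIs and 0.15 with Y-linked Ifnar1-SA cells. The resident-type median was 0.020 without its subset and -0.20 at low stress, and the MHC class II median -1.34 at low stress. With Y-linked Ifnar1-SA cells the lipid handling median was -0.39, and these reversed: lysosome -0.14, hypoxia 0.56, Gpnmb -3.86, Ly6c2 -0.84, Ifi44 -1.16, Syngr1 -0.58, Fabp5 -0.44 and Resf1 -0.12. Mmp12 reversed to 0.032 with equal weights and to 0.11 without the 5 highest cells per library. The subset and stress alternatives were chosen after seeing the data, and causes were not tested. With 1 library per genotype there is no replicate, and the Y-linked setting rests on 19 Ifnar1-SA cells.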
